A study of Sinocyclocheilus angustiporus and Sinocyclocheilus anophthalmus with 4 samples.

Results

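Homeobox and paired box genes were read in the eyes of a surface-living fish and of its cave-living relative. Members were the rows of the deposited eye tables whose descriptive name holds homeobox, homeodomain, orthodenticle homolog or paired box. The 3 rows of homeodomain interacting protein kinases were left out, since these are kinases. The rule found 49 of 9585 named genes, and it used names only, not values. Described by class below are 23 placed in a role in retina, lens or the front of the eye. The other 24 described are mostly expressed more widely or in other tissues. Counts over the whole family cover all 49. The eye libraries came from whole eyes of adult fish. The surface fish was Sinocyclocheilus angustiporus and the cavefish was Sinocyclocheilus anophthalmus, both freshwater fish of the carp family. Each species gave 1 eye library. The labels mention 2 individuals per species and do not say whether their RNA was pooled. No treatment was given, so species, habitat and library differ together and cannot be told apart. Zebrafish symbols are used below for the matching descriptive names, and a paralog letter or number is only as sure as that name.

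Homeobox genes encode transcription factors that bind DNA through a homeodomain, and Pax proteins bind through a paired domain, often beside a homeodomain. A small set of them (Rx, Pax6, Six3, Six6 and Lhx2) marks the eye field of the embryo. In the adult eye many are kept on in particular cells: Otx and Crx proteins in photoreceptors, vsx1 in bipolar cells, Pax6 in amacrine and ganglion cells, and Prox1 and Pitx3 in the lens. They are regulators, and their transcripts are usually far less abundant than those of the proteins that a differentiated cell makes in bulk.

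The authors deposited RPKM, read numbers divided by transcript length and library size. Because they are scaled to length, levels of different genes can be compared roughly. The reference, and how reads were divided between gene copies, are not given by the sources used here, so such comparisons are uncertain. Where 2 RPKM values follow each other, the surface fish value comes first and the cavefish value second. Ratios between the eyes are log2((cavefish RPKM + 1) / (surface fish RPKM + 1)), and 2-fold means a log2 ratio of 1 or -1. With 1 library per eye there is no replicate check and no test, and the read depth is unknown, so no error can be attached to a value. Every row reached 5 RPKM in at least 1 eye, so genes low in both eyes are not among the rows. All genes together had a median log2 ratio of -0.27. Because of that shift, ratios or counts centred on the median of all genes are given where the call of a named gene or the count of a list changes. Eye markers were present in both libraries: rhodopsin, the rod pigment, stood at 14606 and 4884 RPKM, and the lens protein gene crybb1 at 488.1 and 1085 RPKM. Genes of other tissues were present too. The 8 skeletal muscle markers summed to 750.8 and 2152 RPKM, and the 8 markers of corneal and skin epithelium to 1206 and 278.1 RPKM. In a whole eye, fewer cells of a type and less RNA per cell cannot be told apart.

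As a family the members lay close to even between the eyes. Their median log2 ratio was 0.08, against -0.27 for all genes, and 32 of the 49 lay above the median of all genes. On the deposited scale 4 members were higher in the cavefish by 2-fold or more, which is 8.16% of members against 3.84% of all genes. Another 6 were at least 2-fold lower, 12.2% of members against 10.2% of all genes, which is near the background. The 4 higher ones were pitx1, lhx2b, gsx2 and msxc, and the 6 lower ones were dlx3b, tgif2, otx5, pbx4, pax2b and rx2. Centred on the median of all genes, the split turned to 7 higher and 2 lower. The backgrounds there were 6.76% and 5.55% of all genes. The Pbx partner gene pknox1.1 was among those that joined the higher ones, and dlx3b and tgif2 were the 2 still lower. In the tables, 11 of the 49 members stood under 5 RPKM in 1 eye and so entered through the other eye alone. These 11 include 2 of the 4 higher and 4 of the 6 lower members. The share of such rows was similar over all genes, at 1918 of 9585, so it is not particular to the family. Among the 38 members with 5 RPKM or more in both eyes, 2 were higher (pitx1, lhx2b), 2 were lower (otx5, rx2) and 34 lay within 2-fold. The share of all genes past 2-fold under the same condition was not counted, so these numbers are a description only.

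**Figure D1:**
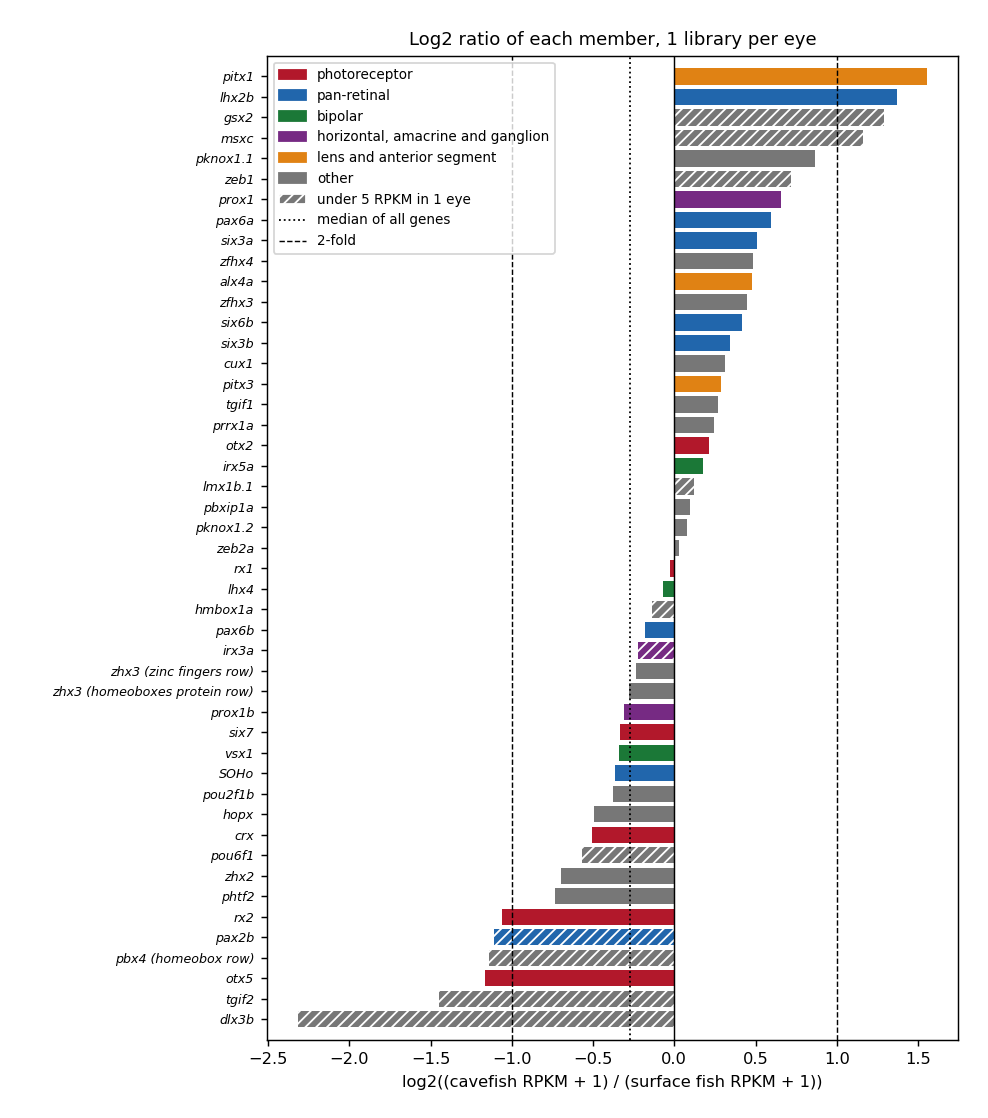
Log2 ratio of cavefish over surface fish RPKM (1 added to each) for the 47 members described by class, with 1 bar per gene coloured by role, hatching where a value is under 5 RPKM in 1 eye, dashed lines at 2-fold and a dotted line at the median of all genes (-0.27). The 3 lens and anterior segment genes lie to the right of 0, and 5 of the 6 photoreceptor genes lie to the left. Of all 9585 genes, 6590 had a ratio below 0 and 2989 above.

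Photoreceptor regulators had the largest median level of the role classes in the surface fish eye (37.1 RPKM); in the cavefish eye theirs was 21.2 RPKM, below the 28.7 RPKM of the pan-retinal class. The 3 most abundant of them all had ratios below 0. Otx5, an Otx gene of photoreceptors and pineal cells, was first of the 49 in both eyes, with 232.2 RPKM in the surface species against 102.9 RPKM in the cave species (log2 ratio -1.17). Crx, the cone-rod homeobox gene that activates many photoreceptor genes, stood at 106.4 and 74.6 RPKM (-0.51), within 2-fold. The retinal homeobox gene rx2, which zebrafish photoreceptors keep on after the eye field stage, stood at 50.8 and 23.9 RPKM (-1.06). The other 3 differed less: six7, which zebrafish need for green cone opsins, stood at 23.5 and 18.4 RPKM (-0.34). Rx1, the sister gene of rx2, stood at 17.3 and 16.9 RPKM (-0.03). Otx2, which is active in pigment epithelium and bipolar cells as well as photoreceptors, stood at 15.9 and 18.6 RPKM (0.22) and was the only 1 of the 6 with a ratio above 0. The class thus had a median of -0.42, with 2 of 6 at least 2-fold lower, against 10.2% of all genes, and none higher. Ratios below 0 were common, at 6590 of all 9585 genes. Centred on the median of all genes, otx5 came to -0.90 and rx2 to -0.79, both under 2-fold, and the class median to -0.15. Rx1 and otx2 then stood at 0.24 and 0.49. The gap between the strong and the weak members narrowed: otx5 made up 52.1% of the RPKM of the 6 genes in the surface species and 40.3% in the cave species.

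**Figure D2:**
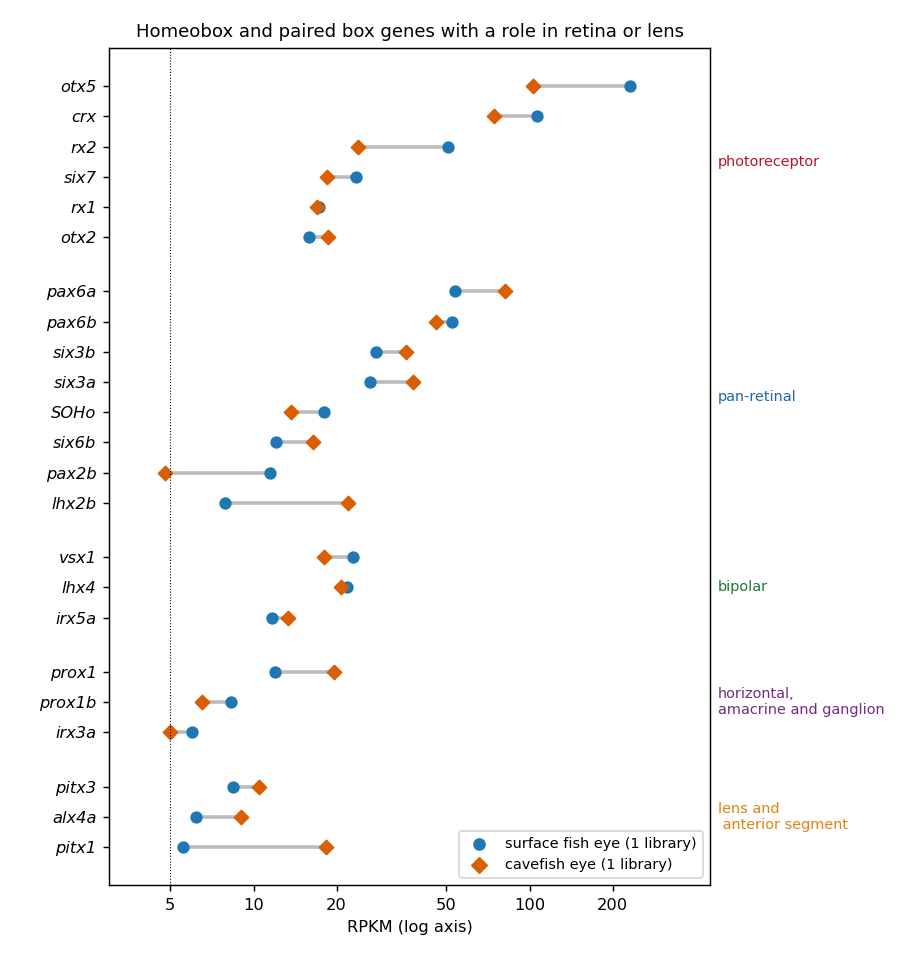
RPKM on a log axis of the 23 members with a role in retina, lens or the front of the eye, 1 library per eye. Circles are the surface fish eye, diamonds the cavefish eye, and a dotted line marks 5 RPKM. In the photoreceptor class the circles of otx5, crx and rx2 lie farthest right and their diamonds lie to the left, while in the lens and anterior segment class all 3 diamonds lie to the right.

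The genes that mark differentiated rods and cones were lower by more than their regulators. Of 30 matched rod and cone markers, 26 were lower by 2-fold or more and none higher, with a median of -1.49; the geometric mean of their levels came to 173.5 RPKM for the surface species and 64.0 RPKM for the cave species, 2.71-fold lower. Centred on the median of all genes, 21 of the 30 were lower by 2-fold or more. Of these markers 22 had a log2 ratio below that of every one of the 6 regulators. Both the rhodopsin ratio (-1.58) and that of the rod transducin gene gnat1 (-1.74) were among them. Set against the marker mean of the same eye, a measure that does not depend on how the libraries are scaled to each other, each regulator took a larger share in the cavefish. Crx stood at 61.3% of the marker mean in the surface fish and 116.5% in the cavefish, 1.90-fold more. Otx5 stood at 133.8% and 160.7%, 1.201-fold more, and rx2 at 29.3% and 37.3%, 1.27-fold more. The shares of six7, rx1 and otx2 were 2.12-fold, 2.66-fold and 3.18-fold larger. Otx5 and rx2 were thus the regulators that moved most nearly with the markers. Photoreceptor regulators that the name rule does not take were likewise mixed. Nr2e3, a nuclear receptor of rods, stood at 107.6 and 45.6 RPKM (-1.22; -0.95 centred), and neurod1 at 186.6 and 71.5 RPKM (-1.37). Nrl, the leucine zipper factor of rod fate, stood at 20.4 and 25.4 RPKM (0.31), and thrb, the thyroid hormone receptor of long-wave cones, at 44.7 and 35.9 RPKM (-0.31).

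**Figure D3:**
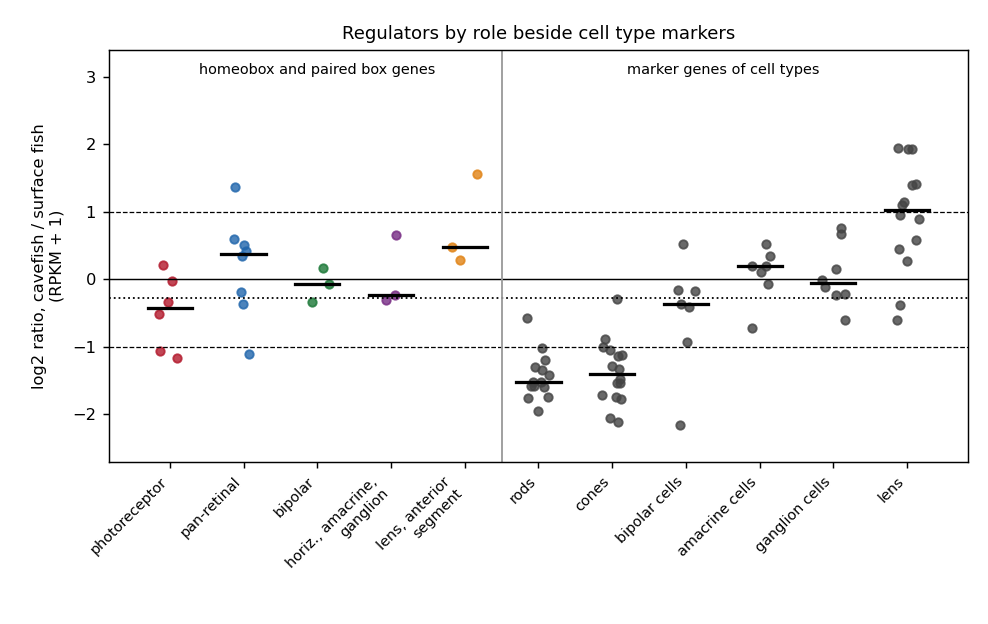
Log2 ratio of cavefish over surface fish RPKM (1 added to each) for the members of 5 role classes (left) and for marker genes of 6 cell types (right), with 1 point per gene, a bar at the median, dashed lines at 2-fold and a dotted line at the median of all genes. Rod and cone markers centre on -1.52 and -1.40, below the photoreceptor regulators (-0.42). The medians of the lens and anterior segment regulators (0.48) and of the lens markers (1.03) lie above 0. The former is the value of alx4a, a gene of neural crest mesenchyme, while pitx3, the lens gene proper, is at 0.29.

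Pan-retinal regulators, the genes of the eye field and of the retinal progenitor, had a median of 0.38 over 8 genes. Of these, 5 had ratios above 0, as did 2989 of all 9585 genes. At least 2-fold higher was 1 of the 8, and at least 2-fold lower was 1. That is 12.5% in each direction, against 3.84% higher and 10.2% lower of all genes, and rests on 1 gene each. Pax6a, a copy of the Pax6 gene on which eye formation depends, stood at 53.7 and 81.8 RPKM (0.60), which put it at rank 2 of the 49 members in the cave species and rank 3 in the surface species. The other copy, pax6b, stood at 52.3 and 45.9 RPKM (-0.18). The sine oculis genes placed in this class all had ratios above 0 and within 2-fold, while six7, placed with the photoreceptor regulators, was at -0.34. Six3a stood at 26.3 and 37.9 RPKM (0.51), six3b at 27.8 and 35.5 RPKM (0.34), and six6b at 12.1 and 16.5 RPKM (0.42). Lhx2b, a LIM homeobox gene of the eye field that Mueller glia keep on, was the member of this class that differed most. It measured 7.88 RPKM against 21.9 RPKM and so was 2.78 times as high in the cave species (log2 ratio 1.37). It was past 2-fold under every scaling and pseudocount tried. Of 8 Mueller glia markers, none was 2-fold higher and 2 were lower, with a median of -0.30 and summed levels of 676.9 and 546.3 RPKM; the glial filament gene gfap had the highest ratio of them (0.80). Centred, the median was -0.03, gfap was at 1.07, the 1 higher, and the glutamine synthetase gene glulb at -1.01, the 1 lower. Pax2b, a gene of the optic stalk and of glia at the optic nerve head, stood at 11.4 and 4.77 RPKM (-1.11). Centred on the median of all genes it was at -0.84, and with a pseudocount of 5 at -0.75. Under 5 RPKM in the cavefish, it entered through the surface fish eye alone. SOHo, an Hmx-type gene of sensory organs, stood at 17.95 and 13.7 RPKM (-0.36).

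The 3 bipolar cell regulators lay near even, and none was past 2-fold. Vsx1, a gene of a subset of bipolar cells, stood at 22.9 and 17.9 RPKM (-0.34). Lhx4, a LIM homeobox gene that mouse cone bipolar cells and developing photoreceptors express, stood at 21.8 and 20.7 RPKM (-0.07). Irx5a, whose mouse counterpart marks a set of cone bipolar cells, stood at 11.7 and 13.3 RPKM (0.17). The class median was -0.07. The 7 matched bipolar markers had a median of -0.37 and summed to 1051 and 768.0 RPKM; 1 of them, cabp5, was lower by 2-fold or more (281.1 and 62.2 RPKM) and none was 2-fold higher. Of the 7, 6 had ratios below 0. The most abundant, trpm1, stood at 604.0 and 538.8 RPKM (-0.16). Gnao1a, the only 1 with a ratio above 0, stood at 44.2 and 64.2 RPKM (0.53). Nyx was near the floor of the tables, at 5.05 and 2.18 RPKM (-0.93), and entered through the surface fish eye alone.

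Regulators of horizontal, amacrine and ganglion cells were few, with 3 members. Prox1, a prospero-type gene of horizontal and amacrine cells that lens fibre cells also need, stood at 11.98 and 19.5 RPKM (0.66). Its copy prox1b stood at 8.30 and 6.51 RPKM (-0.31), and the Iroquois gene irx3a at 5.98 and 4.97 RPKM (-0.23). None was past 2-fold in either direction. The neurons themselves were marked by genes that lay near even as well: the 7 amacrine markers had a median of 0.20 and the 8 ganglion cell markers one of -0.06, with none past 2-fold in either list; centred, 1 ganglion cell marker, gap43, was higher (1.03). The 2 matched horizontal cell markers were at least 2-fold lower, and both were under 5 RPKM in the cavefish eye. Homeobox genes of these cells whose names lack the words of the rule lay within 2-fold as deposited. Isl1, of ganglion, amacrine and bipolar cells, was level at 17.75 and 17.79 RPKM (0.00). Pou4f2, which ganglion cells need, stood at 2.91 and 5.50 RPKM (0.73), and isl2a at 2.83 and 6.05 RPKM (0.88); centred, they came to 1.005 and 1.15. Both pou4f2 and isl2a stood under 5 RPKM in the surface species and so entered the tables through the other eye alone. Barhl2, of amacrine and ganglion cells, stood at 6.69 and 8.77 RPKM (0.35).

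The lens and anterior segment regulators, of which pitx3 is the lens gene proper, had log2 ratios above 0 in 3 of 3 cases. Their median of 0.48 is the value of alx4a. Pitx1 alone was at least 2-fold higher, 33.3% of the class against 3.84% of all genes, and this share rests on 1 gene. Neither the median nor the call is thus that of the lens gene proper. Pitx1, a paired-like gene best known from the hindlimb and the pituitary, measured 5.55 RPKM against 18.2 RPKM and so was 3.29 times as high in the cave species. Its log2 ratio of 1.56 was the highest of the 49 members. Pitx3, a gene of the lens placode and lens epithelium, stood at 8.41 and 10.5 RPKM (0.29), and alx4a, of neural crest mesenchyme, at 6.19 and 9.03 RPKM (0.48). Markers of lens and of skeletal muscle were higher too. Of 14 lens markers, 7 were at least 2-fold higher and none was 2-fold lower, with a median of 1.03 and summed levels of 6819 and 7292 RPKM. Of the 7, the connexin genes cx44.1 (0.99 and 6.62 RPKM) and gja3 (2.5 and 12.3 RPKM) were under 5 RPKM in the surface species and so entered the tables through the cavefish eye alone. The 2 lens markers with ratios below 0 were the crystallin genes cryba1a (-0.60) and crygs1 (-0.38). Centred, 9 of the 14 were at least 2-fold higher. Of 8 skeletal muscle markers, 6 were at least 2-fold higher and none was lower, with a median of 1.27 (7 higher when centred); myoglobin stood at 53.5 and 292.4 RPKM. The part of lens and muscle content in the values of the 3 regulators was not tested. Hsf4, a heat shock factor of lens fibres outside the name rule, stood at 3.52 and 6.83 RPKM (0.79, or 1.06 centred). It too was under 5 RPKM in the surface species and entered through the cavefish eye alone, so its ratio could not lie below 0.

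The other 24 members had a median of 0.06, with 2 at least 2-fold higher, 3 lower and 19 within 2-fold. The shares were 8.33% higher and 12.5% lower, against 3.84% and 10.2% of all genes, so the lower share was near the background. Centred on the median of all genes, 3 were higher and 2 lower, where the backgrounds were 6.76% and 5.55% of all genes. Dlx3b, a distal-less gene of the epidermis and of the olfactory and ear placodes, had the lowest ratio of all 49: it measured 12.2 RPKM against 1.66 RPKM in the cave species (-2.32). It was the only member past 4-fold in the ratio with 1 RPKM added to each value. Beside it, 5 of 8 markers of corneal and skin epithelium were lower by 2-fold or more and none higher, with a median of -1.84; epcam, a gene of epithelial adhesion, stood at 74.1 and 4.46 RPKM. The part of epithelial content in the dlx3b value was not tested. Tgif2, a repressor of the TALE homeobox class, stood at 5 and 1.2 RPKM (-1.45), or 4.17-fold lower without the added 1 RPKM. Its sister gene tgif1 stood at 13.8 and 16.9 RPKM (0.27). The row named pre-B-cell leukemia homeobox 4, a Pbx cofactor of the same class, stood at 11.7 and 4.75 RPKM (-1.14; -0.87 centred). Gsx2, best known from the forebrain, stood at 1.96 and 6.23 RPKM (1.29), and msxc, a muscle segment homeobox gene, at 2.31 and 6.42 RPKM (1.16). With a pseudocount of 5 gsx2 and msxc came to 0.69 and 0.64, and tgif2 to -0.69, so these 3 calls rest on values near the floor. The pbx4 row also came under 2-fold with that pseudocount (-0.77), while dlx3b stayed past it (-1.37). The pbx4 row, dlx3b and tgif2 stood under 5 RPKM in the cavefish eye and so entered through the surface fish eye alone. Gsx2 and msxc stood under 5 RPKM in the surface fish eye and entered through the cavefish eye alone.

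Members of this mixed class within 2-fold ranged from -0.74 to 0.87. Pknox1.1, a Pbx partner of the TALE class, had the highest of these, at 24.3 and 45.2 RPKM. It was past 2-fold with each of the 4 other scalings (1.14 when centred). The row named putative homeodomain transcription factor 2, phtf2, had the lowest, at 33.7 and 19.8 RPKM (-0.74); despite its name this gene is known to encode a membrane protein. Zinc finger genes known from the epithelial to mesenchymal transition stood close to the floor or near even: zeb1 at 3.53 and 6.44 RPKM (0.72) and zeb2a at 10.6 and 10.9 RPKM (0.03). The large zinc finger homeobox genes of differentiating neurons, zfhx3 and zfhx4, measured 6.85 and 9.72 RPKM (0.45) and 13.2 and 18.8 RPKM (0.48). Zhx2 stood at 13.6 and 8 RPKM (-0.70). The 2 rows that bear the name zhx3 had like ratios, -0.28 and -0.23. Also in this class were genes that do not act by binding DNA through a homeodomain: hopx, a small cofactor, at 14.2 and 9.80 RPKM (-0.49), and pbxip1a, a Pbx-binding protein, at 6.40 and 6.92 RPKM (0.10).

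Related genes were also compared within each eye, since the ratio of a pair of genes in 1 library does not depend on the scaling between libraries. Of 9 pairs, 7 shifted by more than 1.5 times between the eyes. How often other pairs of genes shift as much was not counted, so this number is a description only. The tgif1/tgif2 ratio moved most, from 2.77 to 14.1, and rests on tgif2 at 5 and 1.2 RPKM. In zeb2a/zeb1, zeb1 stood at 3.53 RPKM in the surface species. The pairs were chosen from the names of related members with their values known. In the Otx genes, otx5 was 14.6 times as abundant as otx2 in the surface species and 5.53 times in the cave species. In the Rx genes, rx2 was 2.94 times and 1.41 times as abundant as rx1. In both, the more abundant gene remained ahead by a smaller margin in the cavefish. Near-equal copies in the surface fish parted in the cavefish for Pax6, where pax6a over pax6b was 1.03 and 1.78. Prox1 over prox1b was 1.44 and 2.995. The Six3 copies stayed even, with six3a over six3b at 0.946 and 1.07, and zfhx4 over zfhx3 was 1.93 and 1.94. How reads were divided between copies of a duplicated gene is not given by the sources used here, so a ratio between close copies such as pax6a and pax6b is uncertain.

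**Figure D4:**
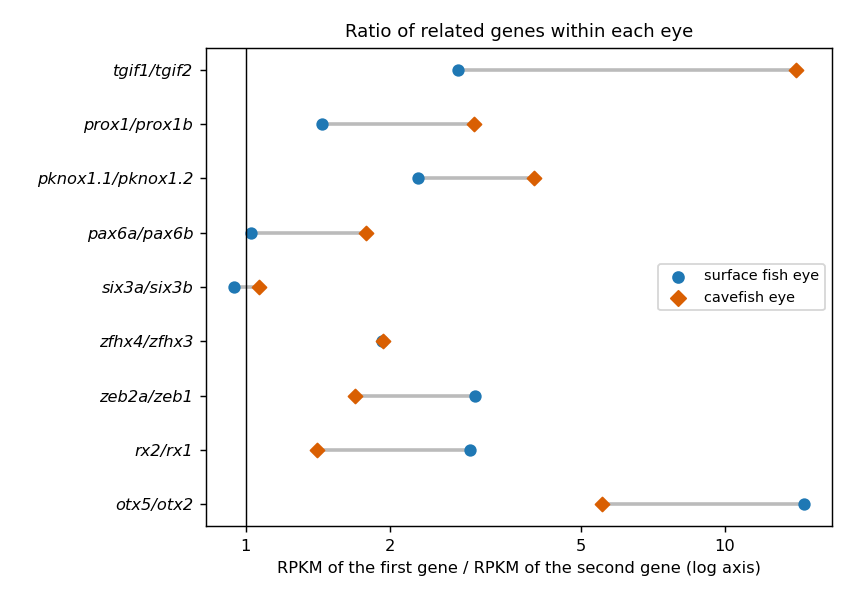
Ratio of the RPKM of 2 related genes within the surface fish eye (circles) and within the cavefish eye (diamonds) on a log axis, for 9 pairs, with a vertical line where both genes are equal. The otx5/otx2 and rx2/rx1 ratios are smaller in the cavefish eye, pax6a/pax6b and prox1/prox1b are larger, and six3a/six3b and zfhx4/zfhx3 hardly move.

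The order of levels was largely shared. Across the 49 members, the log2(RPKM + 1) values of the 2 eyes had a Pearson r of 0.79 and a Spearman rho of 0.77; the points share 2 libraries and are a description only. Of the 10 most abundant members in each eye, 8 were shared. In the surface fish eye the order began with otx5, crx, pax6a, pax6b and rx2, all at or above 50 RPKM, and in the cavefish eye with otx5, pax6a, crx, pax6b and pknox1.1, of which 3 were at or above 50 RPKM. Rx2 stood at rank 5 in the surface species and rank 9 in the cave species and lhx2b at ranks 36 and 10. Together the members made up 0.153% of the RPKM of all rows in the surface species and 0.142% in the cave species. The 2 most abundant rows of each eye held 53.2% and 62.6% of those totals. The member shares depend on these rows, so the difference between the shares is not read as one of the members. Otx5 exceeded 98.2% of all genes in the surface fish and crx 95.2%. The median member of that eye, at 12.1 RPKM, lay close to its median gene, at 11.9 RPKM. In the cavefish eye the median member stood at 13.4 RPKM and the median gene at 10 RPKM.

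Homeobox genes named without the words of the rule added 13 rows, with 1 at least 2-fold higher, 1 lower and a median of 0.31. That is 7.69% in each direction, against 3.84% higher and 10.2% lower of all genes, and rests on 1 row each. The lower one was the row named pre-B-cell leukemia transcription factor 4, at 206.7 and 44.4 RPKM (-2.19), a second row of Pbx4 type and far more abundant than the member of that name. The higher one was the teashirt gene tshz1, at 1.94 and 5.53 RPKM (1.15), which entered the tables through the cavefish eye alone. Centred, 3 were higher (tshz1, isl2a and pou4f2) and 1 lower, against 6.76% and 5.55% of all genes. Meis1, a TALE partner of Pbx proteins in the eye, stood at 51.8 and 36.1 RPKM (-0.51), and meis2.2 at 28.1 and 35.1 RPKM (0.31). Over the listed regulators of eye cells outside the name rule, 36 of 51 were matched. The Isl, pou4f2, Meis and Pbx rows among the 13 above are counted in this list too. Of the 36, 2 were at least 2-fold higher (5.56%, against 3.84% of all genes) and 5 lower (13.9%, against 10.2%). The median was 0.13. The higher ones were sox2, of retinal progenitors and glia (11.6 and 26.1 RPKM), and bhlhe22, of amacrine and bipolar cells (15.6 and 34.9 RPKM). The lower ones were neurod1 and nr2e3, with the values above, the Pbx4-type row, mef2b and foxg1b, a forkhead gene. Foxg1b stood at 99.2 and 46.4 RPKM (-1.08, or -0.81 centred) and mef2b at 6.58 and 0.80 RPKM (-2.07). Mef2b was under 5 RPKM in the cavefish eye and so entered through the surface fish eye alone. Centred on the median of all genes, 7 of the 36 were higher and 3 lower, where the backgrounds were 6.76% and 5.55% of all genes.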

How the data were processed

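RNA sequencing was analysed for the 2 eye libraries of a series of 4; those of brain were not used here. According to the labels' protocols, RNA of whole eyes was extracted with TRIzol, selected with oligo(dT) and sequenced paired-end on a Genome Analyzer or a HiSeq instrument; which library ran on which is not stated. Both deposited tables give RPKM made by the authors, per the file headers, for 9649 rows each. The submitters' processing notes list Bowtie 0.12.2 without saying for which step; the reference is not given by the sources used here. Depth is unknown.

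Each column was assigned to its library by matching the fish in the header, and the eye table it heads, to the sample titles. Where a name was repeated (64 names), its row with the larger summed value was kept, leaving 9585 genes. Log2 ratios used a pseudocount of 1; a filter of 1 RPKM on the larger value removed no row. They understate the change of low genes. No test was possible with 1 library per group. Of the 49 members, 2 are not reported singly or by class here. Members, role classes and lists were chosen with earlier results of these data known; genes were matched to symbols by name. Values are printed for members with an eye role, past 2-fold, or with an absolute log2 ratio of 0.9 to 1; the other members of the mixed class, and the pairs, were named after their values were seen. Alternatives were pseudocounts of 0.1 and 5, a filter of 10 RPKM or none, 4 other scalings (centring on the median of all genes, a trimmed mean, equal totals without the 50 most abundant genes, and quantile normalization), summed rows, other member lists and a threshold of 4-fold. The computation was tested on simulated data. Python 3.11.15, numpy 2.4.6, pandas 2.3.3 and matplotlib 3.10.9 were used.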

Additional observations from a re-analysis of the deposited data

How the results depend on the processing

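No paired analysis was possible because each eye had 1 library, and no library could be left out. The median log2 ratio of the members, 0.08 as reported, was 0.0863 with a pseudocount of 0.1, 0.0597 with one of 5, 0.0552 over the members reaching 10 RPKM, 0.0889 with the wider member list and 0.14 without members under 5 RPKM in 1 eye. With centring, the trimmed mean, equal totals without the 50 most abundant genes and quantile normalization it was 0.35, 0.35, 0.33 and 0.29. Each of these 4 scalings gave 7 members at least 2-fold higher and 2 lower, in place of 4 and 6. All genes gave 595 to 648 higher and 532 to 563 lower there, in place of 368 and 974. The 4 scalings move the median of all genes up from -0.27, to between -0.02 and 0.00. A pseudocount of 5 gave 2 higher and 2 lower, beside 173 and 517 of all genes. Leaving out members under 5 RPKM in 1 eye also gave 2 higher and 2 lower, over 38 members. All genes were not counted under that condition. With a larger value of at least 10 RPKM, 2 of 36 members were higher and 5 lower. Of all genes that reach 10 RPKM, 254 were higher and 809 lower. How many genes reach 10 RPKM is not given here, so these counts are not read as shares. At 4-fold 0 members were higher and 1 lower, beside 58 and 124 of all genes. Of the 28 members followed singly, none with a call changed sign. Under each of the 4 scalings otx5, rx2, pax2b and pbx4 came under 2-fold. With a pseudocount of 5, rx2 (-0.95), pax2b (-0.75), pbx4 (-0.77), gsx2, msxc and tgif2 came under it. The unknown depth limits all values near 5 RPKM.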

Other observations

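Partners of the sine oculis proteins were looked up after their values had been seen. Eya proteins are coactivators that bind sine oculis proteins, and Dach proteins are cofactors of the same network. The 3 matched Eya genes were all lower in the cavefish eye and within 2-fold: eya1 measured 10.1 RPKM in the surface species against 7.04 RPKM in the cave species (log2 ratio -0.47), eya3 at 8.04 and 5.01 RPKM (-0.59), and eya4 at 5.92 and 3.88 RPKM (-0.50). Centred on the median of all genes, eya1, eya3 and eya4 came to -0.20, -0.32 and -0.23. The matched Dach genes had ratios on the other side of 0. Dacha stood at 3.20 and 6.74 RPKM (0.88, or 1.15 centred) and dachd at 4.51 and 6.88 RPKM (0.52, or 0.79 centred). Dacha and dachd were under 5 RPKM in the surface fish eye and entered the tables through the cavefish eye alone. Their ratios could therefore not lie below 0. Eya4 was under 5 RPKM in the cavefish eye and entered through the surface fish eye alone, so its ratio could not lie above 0. Ratios below 0 were common, at 6590 of all 9585 genes. The Eya and Dach values lie beside those of six3a, six3b and six6b, whose ratios were 0.51, 0.34 and 0.42, and of six7, at -0.34.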
